A study of Homo sapiens with 12 samples.

Results

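The genes described here encode parts of the oxidative phosphorylation machinery of mitochondria. They were taken from the array's platform annotation by the start of the symbol: NDUFA, NDUFB, NDUFC, NDUFS, NDUFV, SDHA to SDHD, UQCR, COX4 to COX8 and ATP5. After 1 pseudogene (UQCRBP1) was left out, 29 of 14884 genes with a symbol were matched, each represented by its probe set with the highest mean. Only 23 of the 29 encode subunits: 5 of complex III, 16 of complex IV and 2 of complex V. The 2 of complex V are ATP5MJ and ATP5MK, and medians of complex V describe these genes only. No catalytic subunit of complex V was among the named probe sets, nor was UQCRFS1 of complex III. No subunit of complex I (0 genes) or complex II (0 genes) was among the named probe sets, so these complexes were not analysed here, and the comparison is between complexes III, IV and V. The other matches were 4 related proteins (NDUFAF7, NDUFAF8, COX7A2L and ATP5IF1) and 2 non-coding RNA genes (NDUFA6-DT and NDUFB2-AS1), which are given apart from the subunits.

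Complexes I to IV carry electrons from nutrients to oxygen and, except for complex II, pump protons out of the mitochondrial matrix. Complex V, the ATP synthase, lets the protons return and makes ATP. Complex III (cytochrome bc1) passes electrons from coenzyme Q to cytochrome c, and complex IV (cytochrome c oxidase) passes them on to oxygen. The catalytic cores of complexes III and IV include subunits encoded by mitochondrial DNA, while the genes described here lie in the nucleus. Several complex IV subunits exist in a general form and in a form restricted to certain tissues, such as heart and skeletal muscle, lung or testis.

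The data are 12 arrays, in 4 groups of 3, made from total RNA of Ishikawa, an established line of human endometrial adenocarcinoma. Control cells and shMOF cells were each labelled either ERα(-) or ERα(+). A short hairpin named for MOF, the histone acetyltransferase encoded by KAT8, marks the shMOF groups. ESR1 encodes ERα, a nuclear receptor for oestrogen. By its title, the series is about feedback between MOF and this receptor. What separates ERα(-) from ERα(+), the hairpin's sequence, whether the cells are clones, and whether replicates came from separate cultures are facts the sources used here do not give. The p-values therefore rest on array-to-array spread only, and that spread may be technical. All levels below are log2 signals, and a difference of 1 on this scale is a change of 2-fold.

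The targeted gene did not follow the labels. KAT8 had a log2 signal of 6.77 ± 0.10 (SD, n = 3) among the ERα(-) controls, 6.75 ± 0.03 among the ERα(-) shMOF arrays, 6.74 ± 0.12 among the ERα(+) controls and 6.78 ± 0.21 among the ERα(+) shMOF arrays. ESR1 ran from 4.12 to 4.43 and from 4.34 to 4.52 on the control and shMOF arrays labelled ERα(-), and from 4.32 to 4.65 and from 4.27 to 4.28 on those labelled ERα(+). Its 1 probe set was dim, with a mean of 4.36 over the 12 arrays (percentile 27.1 of all genes). At such a level it can say little about the ERα label. Every direction below is therefore between arrays labelled in a certain way. Epithelial markers were bright (7 of 7 measured of a list of 8 lay above the median gene level of 5.66), the stromal markers DCN and LUM were at 2.06 and 2.20, and of 4 measured immune and endothelial markers only CD68, at 7.03, lay above it. The mean of the epithelial list ran from 8.63 to 8.76 among the ERα(-) controls, 8.67 to 9.03 among the ERα(-) shMOF arrays, 8.80 to 9.08 among the ERα(+) controls and 8.53 to 8.82 among the ERα(+) shMOF arrays. No pair of arrays was identical (r between 0.965 and 0.994 over 66 pairs, across genes).

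Between the groups, the subunits differed by little, and none of the 29 genes was called in any comparison (limma, Benjamini-Hochberg adjusted p below 0.05 over all 14884 genes, of which 0% were called in each of the 5 comparisons and in the test of any difference among the 4 groups). The summary pattern was a small one that ran in opposite directions by ERα label. The median subunit was higher in shMOF than in control by 0.09 in ERα(-) while in ERα(+) its log2 difference was -0.12. Across the 12 arrays the mean of the 23 subunits was 7.37 ± 0.04 (SD, n = 3) among the ERα(-) controls, 7.46 ± 0.12 among the ERα(-) shMOF arrays, 7.47 ± 0.05 among the ERα(+) controls and 7.35 ± 0.12 among the ERα(+) shMOF arrays. Of the 23 subunits, 14 (60.9%, against 34.2% of all genes) were higher in shMOF in ERα(-) and lower in ERα(+). On the subunit mean, the groups overlapped in 3 of the 4 comparisons of 2 groups, and the control groups did not, with 7.33 to 7.41 in ERα(-) and 7.42 to 7.52 in ERα(+). The gap, from 7.409 to 7.421, was narrow beside the SDs of these groups. How often means of other genes separate the control groups was not counted.

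**Figure D1:**
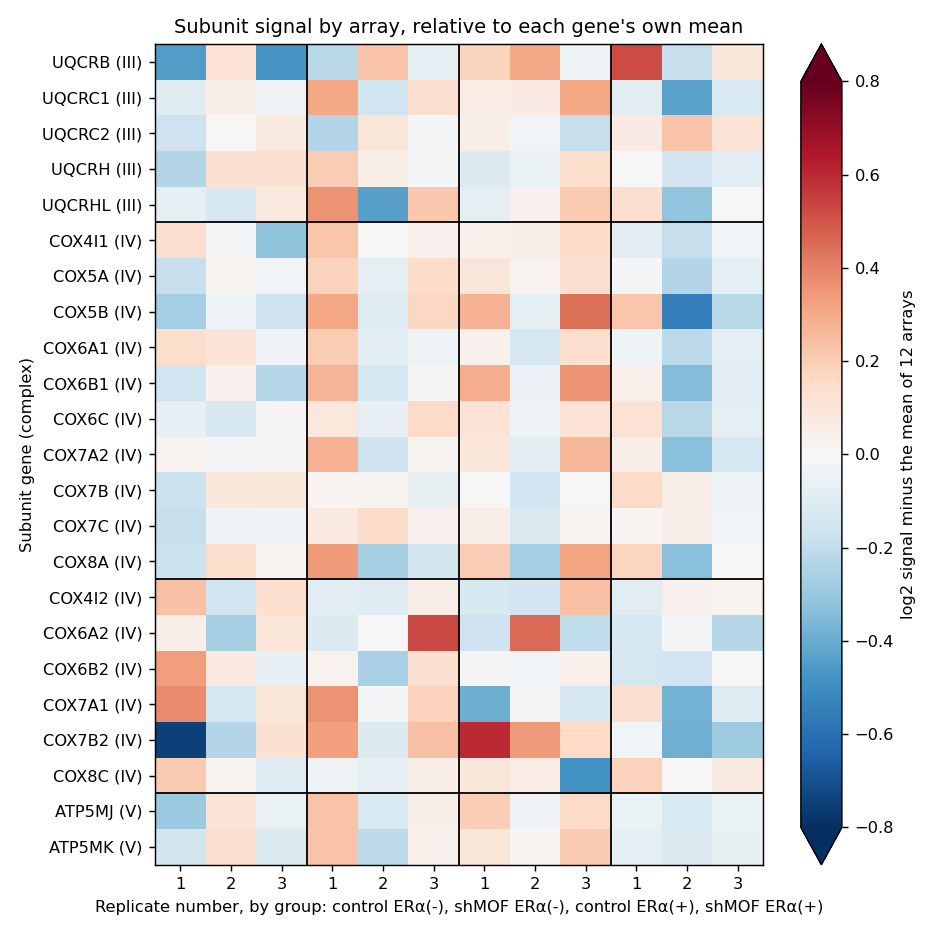
Each row is 1 of the 23 subunits, ordered by complex with the tissue forms of complex IV in a block of their own, and each column is 1 array. Colour gives the log2 signal minus that gene's mean over 12 arrays. Columns of shMOF ERα(-) replicate 1 and control ERα(+) replicate 3 are mostly red and that of shMOF ERα(+) replicate 2 mostly blue, while UQCRC2 runs the other way on these 3 arrays.

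The 4 subunits with the smallest p in the interaction (the difference between the 2 shMOF differences) were UQCRC1 of complex III and COX5B, COX6B1 and COX7B2 of complex IV. UQCRC1 encodes a core protein on the matrix side of complex III (probe set 16953568, chromosome 3, 48599002 to 48609646, GRCh38.p14). COX5B (16883205, chromosome 2, 97646062 to 97648383) encodes a zinc-binding subunit on the matrix side of complex IV, and COX6B1 (16861118, chromosome 19, 35648323 to 35658782) a subunit on its intermembrane side. COX7B2 (16975634, chromosome 4, 46734827 to 46909245) is the relative of COX7B that is best known from testis. Their proximal promoters are shown because nuclear genes of this pathway share sites for the factors NRF1, GABPA (of the ETS family) and YY1. The 250 bases before each RefSeq start site (GRCh38.p14) are printed in the direction of the gene, with matches to the 3 searched motifs in capitals.
UQCRC1, chr3:48609647-48609896, - strand: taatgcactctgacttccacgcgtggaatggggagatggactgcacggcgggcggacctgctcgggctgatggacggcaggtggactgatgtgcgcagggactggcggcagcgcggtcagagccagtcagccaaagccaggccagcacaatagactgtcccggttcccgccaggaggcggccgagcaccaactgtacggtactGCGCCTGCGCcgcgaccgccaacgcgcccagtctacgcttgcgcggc
COX5B, chr2:97645812-97646061, + strand: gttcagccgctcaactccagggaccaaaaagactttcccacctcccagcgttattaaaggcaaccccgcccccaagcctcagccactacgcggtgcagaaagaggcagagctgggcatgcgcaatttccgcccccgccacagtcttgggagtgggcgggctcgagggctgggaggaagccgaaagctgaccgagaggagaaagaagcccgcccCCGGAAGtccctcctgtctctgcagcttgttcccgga
COX6B1, chr19:35648073-35648322, + strand: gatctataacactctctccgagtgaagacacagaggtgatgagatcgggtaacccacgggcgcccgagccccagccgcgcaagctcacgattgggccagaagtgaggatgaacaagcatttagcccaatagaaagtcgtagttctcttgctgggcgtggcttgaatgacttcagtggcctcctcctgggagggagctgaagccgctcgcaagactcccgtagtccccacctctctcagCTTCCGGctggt
COX7B2, chr4:46909246-46909495, - strand: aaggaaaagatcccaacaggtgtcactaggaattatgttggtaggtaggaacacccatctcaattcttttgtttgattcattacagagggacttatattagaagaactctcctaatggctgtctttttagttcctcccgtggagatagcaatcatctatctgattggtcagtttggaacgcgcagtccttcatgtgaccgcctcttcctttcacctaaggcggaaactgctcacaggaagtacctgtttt

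The motifs searched, on both strands of 300-base windows (the 250 bases above plus 50 after the start), were the NRF1 motif of 10 letters, CCGGAAG for ETS factors and AANATGGCG for YY1. UQCRC1 held the NRF1 motif, read as GCGCAGGCGC on the other strand, with any letter allowed at the sixth place, beginning 47 bases before the start, and the YY1 motif after it. COX5B held the ETS motif 37 bases before the start and again across it, and COX6B1 held it on the other strand 12 bases before the start. The window of COX7B2 held none of the 3. The windows table had entries for 18 of the 23 subunit genes, in 19 windows. The ETS motif was in 7 of these (36.8%, against 10.3% of all 35116 windows and 13.3% of the 14884 windows of tested genes), in COX4I1, COX5B, COX6A1, COX6B1, COX8A, UQCRH and ATP5MK. The NRF1 motif was in 3 (15.8% against 5.78% and 7.64%: UQCRC1, COX8C and ATP5MJ) and the YY1 motif in 2 (10.5% against 3.19% and 4.41%: UQCRC1 and COX6A1). At least 1 of the 3 was in 10 windows (52.6% against 17.1% and 22.4%), and no ETS match shared bases with a YY1 match in these windows. A match describes the letters and is not a measured site.

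UQCRC1 read 8.97, 9.11 and 9.04 among the ERα(-) controls, 9.38, 8.91 and 9.20 among the ERα(-) shMOF arrays, 9.13, 9.13 and 9.38 among the ERα(+) controls and 8.98, 8.64 and 8.95 among the ERα(+) shMOF arrays. The shMOF ERα(+) arrays were all below the control ERα(+) arrays, whereas in ERα(-) the shMOF arrays spread to both sides of the controls. The log2 difference between shMOF and control was -0.36 ± 0.14 (SE) in ERα(+) (95% interval -0.67 to -0.05) and 0.12 ± 0.14 in ERα(-), with limma adjusted p = 0.236 and 0.955.

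COX7B2 had the widest range of the 23 subunits, 1.35 from its lowest to its highest array. It read 5.17, 5.68 and 6.04 among the ERα(-) controls, 6.25, 5.81 and 6.15 among the ERα(-) shMOF arrays, 6.52, 6.26 and 6.08 among the ERα(+) controls and 5.90, 5.53 and 5.63 among the ERα(+) shMOF arrays. All control ERα(+) arrays were above all control ERα(-) and all shMOF ERα(+) arrays, by 0.65 ± 0.20 (SE) and 0.60 ± 0.20 on the log2 scale (limma adjusted p = 0.333 and 0.223). Without the low control ERα(-) replicate 1 the former difference was 0.42, and without control ERα(-) replicate 3 it was 0.86. In ERα(-) the shMOF arrays were higher by 0.44 ± 0.20, with overlap (limma adjusted p = 0.953), and by 0.21 without control ERα(-) replicate 1.

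COX5B read 6.23, 6.46 and 6.33 among the ERα(-) controls, 6.81, 6.40 and 6.66 among the ERα(-) shMOF arrays, 6.78, 6.43 and 6.94 among the ERα(+) controls and 6.72, 5.95 and 6.28 among the ERα(+) shMOF arrays. All 4 groups overlapped with one another on this gene, and the lowest array was shMOF ERα(+) replicate 2. Its difference between shMOF and control was 0.28 ± 0.19 (SE) in ERα(-) and -0.40 ± 0.19 in ERα(+) (limma adjusted p = 0.953 and 0.274). COX6B1 read 7.67, 7.87 and 7.60 among the ERα(-) controls, 8.10, 7.69 and 7.84 among the ERα(-) shMOF arrays, 8.12, 7.78 and 8.19 among the ERα(+) controls and 7.87, 7.48 and 7.75 among the ERα(+) shMOF arrays. It too overlapped between all groups, with differences between shMOF and control of 0.16 ± 0.15 in ERα(-) and -0.33 ± 0.15 in ERα(+) (limma adjusted p = 0.953 and 0.267).

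**Figure D2:**
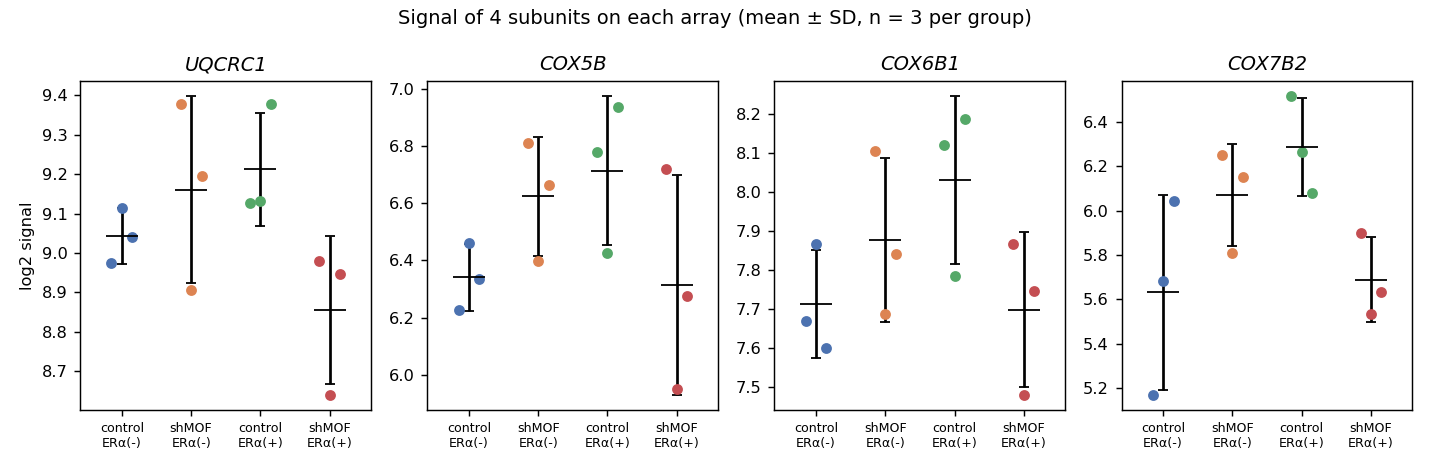
Points are the log2 signals of single arrays for UQCRC1, COX5B, COX6B1 and COX7B2 in the 4 groups; bars give the mean ± SD (n = 3), and each panel has its own axis, which does not start at 0. Control ERα(+) and shMOF ERα(+) are separate for UQCRC1 and COX7B2 and overlap for COX5B and COX6B1.

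Within ERα(-), 16 of the 23 subunits were higher in shMOF than in control and 7 lower, and 49.4% of all genes were higher. None of the 29 genes had an unadjusted p below 0.05 (4.78% of all genes did). The medians of the complexes were alike: 0.09 for complex III, 0.09 for complex IV and 0.10 for complex V, against -0.0026 for all genes, whose quartiles were -0.12 and 0.11. In complex III, UQCRB was at 0.24 ± 0.20 (SE) and UQCRC1 at 0.12. In complex IV, COX7C, one of its smallest subunits, was at 0.17 ± 0.11, with all 3 shMOF arrays (8.91 to 9.02) above all controls (8.69 to 8.84), and COX7B2 was at 0.44. In complex V, ATP5MJ and ATP5MK, small membrane subunits of the ATP synthase, were at 0.13 ± 0.13 and 0.06 ± 0.13. Of these genes, none had a limma adjusted p under 0.953. Without shMOF ERα(-) replicate 1 the median of all subunits was 0.016 and that of complex V -0.0014, and without replicate 2 they were 0.16 and 0.20.

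Within ERα(+) the order was turned: 17 of 23 subunits were lower in shMOF and 6 higher, and 56.2% of all genes were lower. Of the 29 genes, 3 had an unadjusted p below 0.05 (18.7% of all genes did): UQCRC1, COX7B2 and the antisense RNA gene NDUFB2-AS1. The last read 6.0, 6.08 and 6.16 in control ERα(+) and 5.63, 5.59 and 5.87 in shMOF ERα(+), without overlap, a difference of -0.38 ± 0.125 (SE, limma adjusted p = 0.223). The medians were -0.07 for complex III, -0.13 for complex IV and -0.19 for complex V, against -0.04 for all genes, whose quartiles were -0.20 and 0.15. ATP5MK was at -0.19 ± 0.13 and ATP5MJ at -0.18 ± 0.13, with limma adjusted p = 0.424 and 0.45. For both, all 3 shMOF ERα(+) arrays were below all 3 controls (7.65 to 7.71 against 7.78 to 7.97 for ATP5MK, 7.05 to 7.11 against 7.14 to 7.36 for ATP5MJ). COX4I1 of complex IV was also lower without overlap, at -0.18 ± 0.13. How many of all genes separated in this way was not counted. Complex III was not uniform. UQCRC2, the other core protein of that complex, read 10.64, 10.56 and 10.40 in control ERα(+) and 10.65, 10.82 and 10.69 in shMOF ERα(+), without overlap and in the opposite direction to UQCRC1. Its difference was 0.18 ± 0.12 (SE, limma adjusted p = 0.412). The complex III median was 0.0079 without shMOF ERα(+) replicate 2 and -0.19 without shMOF ERα(+) replicate 1, so its sign rests on single arrays. The medians of complexes IV and V stayed below 0 with any 1 array left out, from -0.18 to -0.07 and from -0.24 to -0.15.

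Between the control groups, 15 of 23 subunits were higher in ERα(+) and 8 lower, and 49.6% of all genes were higher. COX7B2 alone of the 29 genes had an unadjusted p below 0.05 (12.7% of all genes did). The medians were 0.10 for complex III, 0.08 for complex IV and 0.17 for complex V, against -0.0024 for all genes. With 1 array left out they ran from 0.05 (without control ERα(+) replicate 3) to 0.16 (without replicate 1) for complex III and from 0.04 (without control ERα(+) replicate 3) to 0.14 (without replicate 2) for complex IV. For complex V they ran from 0.09 (without control ERα(-) replicate 1) to 0.26 (without replicate 2). UQCRB, a subunit that binds coenzyme Q in complex III, was at 0.41 ± 0.20 (SE) with values of 5.36, 5.93 and 5.34 in ERα(-) and 5.99, 6.11 and 5.77 in ERα(+), which overlapped. COX6B1 was at 0.32 ± 0.15 (limma adjusted p = 0.401, and 0.403 for UQCRB). COX7A1, the form of subunit VIIa known from heart and skeletal muscle, went the other way at -0.29 ± 0.17, at a dim level of 4.02 to 4.79 over these 6 arrays.

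Between the shMOF groups, 18 of 23 subunits were lower in ERα(+) and 5 higher, and 55% of all genes were lower. None of the 29 genes had an unadjusted p below 0.05 (5.33% of all genes did). The medians were -0.11 for complex III, -0.16 for complex IV and -0.11 for complex V, against -0.03 for all genes. UQCRC1 was at -0.30 ± 0.14 (SE), COX7B2 at -0.38 ± 0.20 and COX7A1 at -0.29 ± 0.17, while UQCRC2 was at 0.18 ± 0.12, each with limma adjusted p = 0.746. COX4I1, the general form of the largest nuclear-encoded subunit of complex IV, was lower on all 3 ERα(+) arrays (10.39 to 10.55) than on the ERα(-) arrays (10.57 to 10.80), a difference of -0.18 ± 0.13. Without shMOF ERα(-) replicate 1 the medians were 0.05 for complex III, -0.07 for complex IV and -0.02 for complex V, and without shMOF ERα(-) replicate 2 they were -0.21 for complex IV and -0.22 for complex V. Without shMOF ERα(+) replicate 2 the complex III median was 0.017, and without replicate 1 of that group -0.20.

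**Figure D3:**
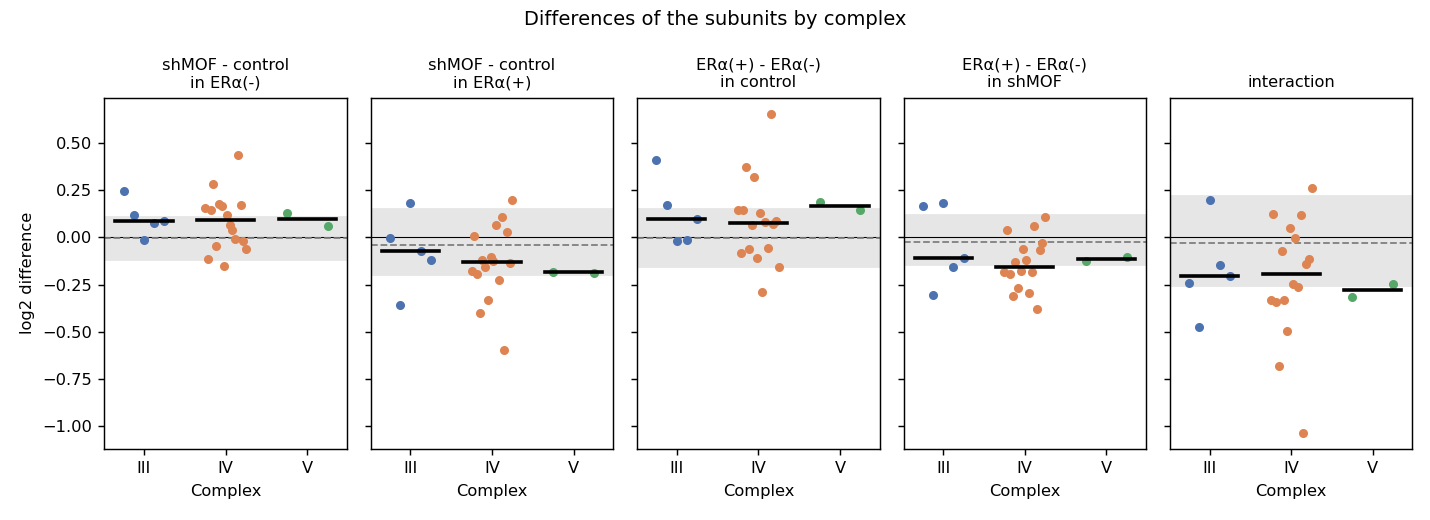
Points are the log2 differences of single subunits of complexes III (5), IV (16) and V (2) for the interaction and each of the 4 pairs of groups; black bars are medians. The dashed line is the median and the grey band the range between the quartiles of all 14884 genes. Complex medians lie above 0 for shMOF in ERα(-) and for ERα in control arrays, and below 0 in the other 3 panels.

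The interaction, taken as the difference of shMOF from control under ERα(+) less the same under ERα(-), was below 0 for 18 of 23 subunits (78.3%) and for 53.5% of all genes. This is one arithmetic combination of the comparisons above, which share their arrays, and not separate evidence. Of the 29 genes, 6 had an unadjusted p below 0.05 (20.7%), a share close to the 18% of all genes: COX7B2, COX5B, UQCRC1, COX6B1, NDUFAF8 and NDUFB2-AS1. COX7B2 had the largest interaction of the subunits at -1.04 ± 0.29 (SE, 95% interval -1.66 to -0.41, limma adjusted p = 0.219), followed by COX5B at -0.68 ± 0.27 and COX6B1 at -0.50 ± 0.22 (limma adjusted p = 0.235 and 0.261). UQCRC1 was at -0.47 ± 0.20 and COX5A, another matrix-side subunit, at -0.34 ± 0.17 (limma adjusted p = 0.256 and 0.293). The medians were -0.21 for complex III, -0.19 for complex IV and -0.28 for complex V, against -0.03 for all genes. In the test of any difference among the 4 groups COX7B2 alone of the 29 genes had an unadjusted p below 0.05 (8.94% of all genes did).

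Calls among these genes came under a pair of the alternative settings tried. Without shMOF ERα(-) replicate 2 the interaction of COX7B2 was called (-1.17, limma adjusted p = 0.048), as were 3.83% of all genes; over all alternatives its adjusted p ran from 0.00629 to 0.736. With array quality weights 7 of the 29 genes were called in the interaction, against 21.9% of all genes, and that fit gave shMOF ERα(-) replicate 3 a weight of 8.86 where the other 11 arrays had 0.359 to 3.70.

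The level of the subunits also differed between arrays of 1 group. The mean of the 23 subunits was highest on shMOF ERα(-) replicate 1 (7.56), control ERα(+) replicate 3 (7.52), shMOF ERα(-) replicate 3 (7.49) and control ERα(+) replicate 1 (7.49), and lowest on shMOF ERα(+) replicate 2 (7.23). On shMOF ERα(-) replicate 1, 10 of the 23 subunits had their highest value of all arrays, and on shMOF ERα(+) replicate 2, 8 had their lowest. The median of all genes with a symbol was also highest on the former array (5.69) and lowest on the latter (5.61). It was 5.68 on control ERα(-) replicate 1, whose subunit mean was 7.33. The first principal component of all 14884 genes held 36.8% of the variance. Its 4 highest scores were on the same 4 arrays (22.3, 32.9, 9.68 and 13.3 in the order above) and its lowest on the same lowest array (-29.8). The part of this component in the differences between groups was not tested. Control ERα(-) replicate 1 scored -4.22 on the first component. On the second component, which held 14% of the variance, it scored 31.9 and the other arrays at most 3.75. The part of the second component was not tested either. With control ERα(-) replicate 1, control ERα(+) replicate 3 and shMOF ERα(+) replicate 2 left out together, the median of the subunits was -0.017 for shMOF in ERα(+), -0.092 for the interaction, and 0 of the 29 genes were called in any comparison.

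**Figure D4:**
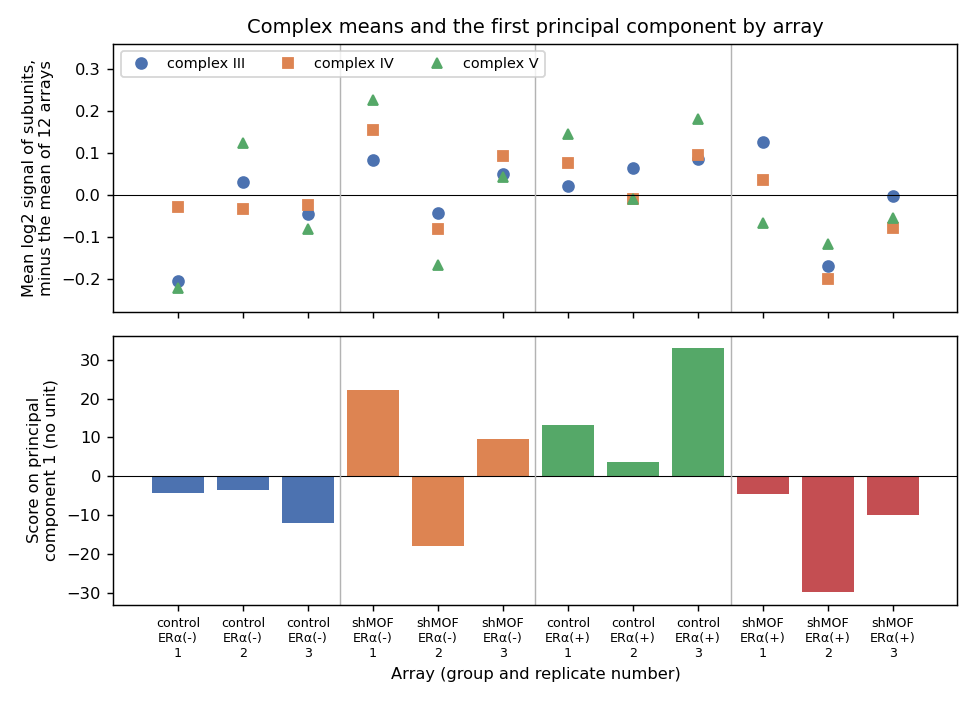
The upper panel gives the mean log2 signal of the subunits of complexes III, IV and V on each array, minus the mean of 12 arrays, and the lower panel that array's score on the first principal component of all genes (36.8% of the variance). Within shMOF ERα(-), replicates 1 and 3 lie above 0 in both panels and replicate 2 below 0 in both.

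Complex IV held both general and tissue forms. The 10 general forms had medians of 0.13 (shMOF, ERα(-) arrays) and -0.16 (shMOF, ERα(+) arrays), and of 0.11 and -0.16 for the ERα label among control and shMOF arrays, and 9 of the 10 were below 0 in the interaction. For the 6 tissue forms the medians were 0.0019, -0.05, -0.10 and -0.16 in the same order, and 3 of 6 were below 0 in the interaction. Of the tissue forms, only COX7B2 had a mean above the median gene level of 5.66. COX4I2, known from lung, had a mean of 5.31, COX7A1 4.41, COX6A2, of heart and skeletal muscle, 4.36, COX6B2, of testis, 3.70, and COX8C, also of testis, 2.89. At such levels RMA, the authors' summary method, can compress differences. Of the 17 general-form subunits of all 3 complexes, 16 were at or above 5.66, the exception being COX6C with a mean of 5.24.

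Among the general forms of complex IV, the narrowest ranges over the 12 arrays were those of COX7B (7.74 to 8.06), COX7C (8.69 to 9.02), COX6C (5.02 to 5.4) and COX6A1 (12.20 to 12.61). COX8A, the general form of subunit VIII, ran from 10.85 to 11.53, yet its 4 differences between groups lay between -0.13 and 0.09. Its spread was within the groups: 11.53, 10.92 and 11.03 on the shMOF ERα(-) arrays. COX5A ran from 10.71 to 11.13, with all control ERα(+) arrays (10.98 to 11.08) above all shMOF ERα(+) arrays (10.71 to 10.93) and a difference of -0.20 ± 0.12 (SE). UQCRH, the hinge protein of complex III, ran from 6.09 to 6.53, and its single-exon copy UQCRHL from 8.63 to 9.42.

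Several of these genes have close copies in the genome, which probe sets may not separate. RefSeq lists 18 pseudogenes named for COX6C, 8 for COX5B, 7 for COX6B1, 6 for COX6A1 and 4 each for COX7B, COX7C and UQCRH, and UQCRHL is itself a copy of UQCRH. COX6A1 had 2 probe sets under its symbol. The one used here (17008088) had a mean of 12.41 and group means between 12.30 and 12.48. The other (16757886), with a mean of 3.69, had group means of 3.45 ± 0.28 (SD, n = 3) among the ERα(-) controls, 3.84 ± 0.49 among the ERα(-) shMOF arrays, 3.97 ± 0.22 among the ERα(+) controls and 3.49 ± 0.20 among the ERα(+) shMOF arrays. Which of the 2 reads the functional gene was not tested. Among the genes described here, probe set numbers followed the chromosomes. The number used lies between those of COX7C (16986983, chromosome 5) and ESR1 (17013809, chromosome 6). The other lies between COX8A (16726183, chromosome 11) and COX8C (16787751, chromosome 14), while COX6A1 is on chromosome 12. The values given here for COX6A1 may therefore be those of a copy.

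Differences were of similar size for the related proteins. NDUFAF8, an assembly factor of complex I, read 9.64, 9.33 and 9.64 in control ERα(+) and 9.27, 9.10 and 9.30 in shMOF ERα(+), without overlap, a difference of -0.31 ± 0.15 (SE, limma adjusted p = 0.278). Its interaction was -0.51 ± 0.21 (limma adjusted p = 0.251). NDUFAF7, a methyltransferase of complex I assembly, was higher on all shMOF ERα(-) arrays (7.08 to 7.32) than on the controls (6.91 to 7.07), by 0.18 ± 0.12. ATP5IF1, the inhibitor of ATP synthase, was higher on all control ERα(+) arrays (8.53 to 8.82) than on control ERα(-) (8.36 to 8.52), by 0.26 ± 0.13. COX7A2L, which helps join complexes III and IV, had differences between -0.11 and 0.05, and the divergent transcript NDUFA6-DT between -0.09 and 0.18.

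Other genes of the pathway, taken from lists chosen with earlier results of these data known, had 0 called members in all 5 comparisons. Of 43 assembly factors 38 were measured, with medians of 0.02 for shMOF in ERα(-) and -0.07 in ERα(+). In ERα(-) 1 was higher and 1 lower at an unadjusted p below 0.05, and in ERα(+) 3 were higher and 6 lower, where 4.78% and 18.7% of all genes had such a p. UQCC2, an assembly factor of complex III, was at 0.44 ± 0.18 (SE) and -0.44 ± 0.18, and LYRM7, which acts in the same assembly, ran the other way at -0.40 ± 0.16 and 0.40 ± 0.16. Of 16 genes of cytochrome c, cytochrome c1 and coenzyme Q synthesis 8 were measured, with medians of 0.08 and -0.22; CYC1, the cytochrome c1 of complex III, was at 0.17 ± 0.16 and -0.38 ± 0.16. Of 21 regulators and upkeep genes of mitochondrial DNA 7 were measured (medians 0.07 and -0.18), and POLRMT, the mitochondrial RNA polymerase, was at 0.18 ± 0.20 and -0.47 ± 0.20, while MTERF1, a mitochondrial transcription termination factor, was at 0.18 ± 0.18 and 0.40 ± 0.18. Of 13 tricarboxylic acid cycle genes 7 were measured (medians 0.14 and -0.12), and IDH3G, a subunit of isocitrate dehydrogenase, was at 0.28 ± 0.12 and -0.22 ± 0.12. DLD, the dihydrolipoamide dehydrogenase shared by several mitochondrial enzyme complexes, had the opposite signs at -0.28 ± 0.18 and 0.47 ± 0.18. At an unadjusted p below 0.05 this list had 1 gene in ERα(-), IDH3G, and 1 in ERα(+), DLD. The list of cytochromes and coenzyme Q synthesis had 0 in ERα(-) and 1 in ERα(+), CYC1. That of regulators and upkeep genes had 0 in ERα(-), and in ERα(+) 1 higher, MTERF1, and 1 lower, POLRMT. Of the 13 subunits encoded by mitochondrial DNA 0 were among the named probe sets.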

How the data were processed

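The authors deposited log2 signals, 1 per probe set. The submitters' processing notes name RMA, a method that corrects background, equalises array distributions and summarises probes, and the software Affymetrix Expression Console (1.4.1). The sources used here name no genome build for the probe sets. Each of 12 arrays held 53617 probe sets, and the platform annotation gave 1 symbol to 16098, several to 0 and none to 37519. The probe set with the highest mean stood for each of 14884 genes. Positions are RefSeq's (GRCh38.p14), and all 29 genes matched it.

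A mean per group was fitted by lmFit and tested two-sided after eBayes (limma 3.58.1, R 4.3.3), leaving 8 residual degrees of freedom, with Benjamini-Hochberg adjustment over 14884 genes and no filter on dim genes. The median 95% interval reached 0.33 to either side for 2 groups and 0.46 for the interaction. The number of arrays limits the precision, and the smallest exact p for 3 arrays against 3 is 0.1. The share of all genes whose arrays separated without overlap in a comparison was not counted. Statements of no overlap therefore describe only the single genes, or the subunit mean, that they name. The script was tested on simulated data. Lists and complexes are described by counts and medians, with no test.

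The members and lists were chosen with earlier results of these data known. Named genes are the subunits with the smallest p in each complex and comparison (2 per complex, 5 in the interaction), any gene called, the tissue forms and their partners, and KAT8 and ESR1; genes of the other pathway lists, the related proteins and single subunits beside these were picked after their values were seen. Alternatives were the mean of probe sets, leaving out dim genes, a second quantile normalization, arrays shifted to 1 median, a mean-variance trend and array weights. Others were fits restricted to the compared groups, a block for replicate number or for the sample code's letter, and each array left out. What the letter marks was not established. Letters A to C were on ERα(-) arrays only and D to H on ERα(+) arrays only. Within ERα(+), control arrays had D and E and shMOF arrays F, G and H. Within ERα(-), letter B was on a control and on an shMOF array, A on controls only and C on shMOF arrays only. A block for the letter cannot separate it from the ERα label, nor from the shMOF label within ERα(+). Within ERα(-) only letter B holds both kinds of array.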

Additional observations from a re-analysis of the deposited data

How the results depend on the processing

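No call was lost, since none was made. Members were called under array quality weights (1 for shMOF in ERα(+), COX7B2; 4 for ERα in shMOF arrays, COX6A2, COX7B2, NDUFA6-DT and UQCRC1; 7 in the interaction; 4 for any difference, COX6A2, COX7A1, COX7B2 and NDUFA6-DT) and, in the interaction, with 1 array left out (0 to 1). Under those weights 10.9%, 12.9%, 21.9% and 22.3% of all genes were called in the same order. The complex IV median of the interaction was -0.30 with the filter on dim genes. With 3 arrays left out together, an alternative chosen after seeing the data, medians were -0.017 for all subunits, 0.068 for complex III and -0.031 for complex IV for shMOF in ERα(+), 0.017 for complex III for ERα in shMOF arrays, and -0.092, 0.013 and -0.092 in the interaction. With any 1 array left out, the complex III median ran from -0.19 to 0.0079 for shMOF in ERα(+), from -0.20 to 0.048 for ERα in shMOF arrays and from -0.30 to -0.081 in the interaction, and that of all subunits in the interaction from -0.31 to -0.15. ATP5MK ran from -0.045 to 0.17 for shMOF in ERα(-) and from -0.22 to 0.00067 for ERα in shMOF arrays. The fit with array weights kept all 12 arrays and 14884 genes, and the cause of its calls was not tested; nor was what sets single arrays apart.

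Whether equal replicate numbers pair the arrays is not given by the labels, and the values did not settle it. Correlations of same-numbered deviations ran from -0.18 to 0.45, and at most 2 of 3 pairs in a comparison were over 0.1. Such pairs were found for shMOF in ERα(+) (0.378 and 0.174) and for ERα in shMOF arrays (0.265 and 0.453). With the replicate block 0 members were called in every comparison, with the interaction of COX7B2 at -1.04 (limma adjusted p = 0.153). At most 4 of 6 arrays in a comparison were closest to their own number, for ERα in shMOF arrays. Complexes I and II gave no value, and counting NDUFA4 in complex I was not run, since NDUFA4 was not among the named probe sets. Medians turned sign in 2 further cases: complex III for shMOF in ERα(+), at 0.0053 with array quality weights, and complex V for shMOF in ERα(-), at -0.0014 without shMOF ERα(-) replicate 1. Other medians of the subunits and complexes kept their sign under the alternatives run. Dim tissue forms of complex IV limit what can be seen of them.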
